A study of Mus musculus with 23 samples.

Results

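Lipocalin 2 and its receptors were followed at the level of their transcripts in the hypothalamus of db/db mice given celastrol. The members were 3 genes of the 18702 measured: Lcn2, which encodes the secreted protein lipocalin 2, and Slc22a17 and Lrp2, which encode its receptors. Each had 1 probe set that named no other gene, and that probe set was used. Lcn2 was picked with its difference between celastrol and vehicle at 1 day known, so that every value involving the 1-day arrays is given for it as a description, with no test. The receptors were listed for their role. Whether their values were also looked at when they were listed is not recorded, and they are tested below on that footing.

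The groups were celastrol at 6 h (3 arrays), vehicle at 6 h (4), celastrol at 1 day (4), vehicle at 1 day (4), celastrol at 4 days (4) and vehicle at 4 days (4), which made 23 arrays. All mice were db/db males aged 8 weeks that were kept on chow for 2 weeks, and all received intraperitoneal DMSO at 25 µl per day, alone (vehicle) or with celastrol, a plant triterpenoid. The celastrol dose is labelled as 250 µg/kg at 6 h and is not given for the later times in the sources used here. The db/db mutation disables the long form of the leptin receptor in every cell. No lean or leptin-responsive mice were among the groups, so no value here refers to an animal with intact leptin signalling.

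Lipocalin 2 is a small secreted protein that binds iron-loaded siderophores. Neutrophil granules store it, and liver, astrocytes, brain endothelium and other cells make it during inflammation, where its transcription was shown to depend on NF-kB with the cofactor encoded by Nfkbiz, on C/EBP factors and on STAT3. The product of Slc22a17, the brain-type organic cation transporter, was described as a cell-surface lipocalin 2 receptor. Megalin, the product of Lrp2, is a very large endocytic receptor of the LDL receptor family that takes up lipocalin 2 and many other ligands in absorptive epithelia such as kidney tubule and choroid plexus. In the mouse, lipocalin 2 made by bone was reported to reach the hypothalamus and to lower food intake through the melanocortin 4 receptor (Mc4r).

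The arrays measured total RNA as log2 expression values, and a difference of 1 on this scale is a doubling. Array medians lay between 8.57 and 8.64. All 16 listed hypothalamic marker genes were measured, with array means of their log2 values between 10.76 and 10.96. At 4 days these means did not overlap between celastrol (10.880 to 10.961) and vehicle (10.817 to 10.835). Among all marker lists and times, only the neutrophil markers at 1 day also had array means that did not overlap. How often lists of other genes would do so was not tested. Arrays of 1 group are named biological replicates in the labels, and the p-values measure the spread between them. The replicate 3 array of vehicle at 6 h stood apart, with the lowest mean correlation with its own group (0.994). Vehicle replicates 2 and 4 at 6 h and vehicle replicate 2 at 4 days had the highest means of pituitary marker genes (9.28, 9.10 and 8.97). Several differences of the 3 genes and medians of gene lists are also given without these arrays, and the other values include them. Without the 3 arrays rich in pituitary markers, the vehicle group at 6 h kept only replicates 1 and 3. Replicate 3 is the array that stood apart, so all values of that setting that involve vehicle at 6 h depend strongly on it.

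Lcn2 was higher with celastrol at 1 day, while its differences at 6 h and 4 days did not pass the test. At 1 day its log2 values were 7.45, 7.77, 7.34 and 8.78 on the celastrol arrays, against 6.46, 6.47, 6.50 and 6.47 on the vehicle arrays. The groups did not overlap, with every celastrol value the higher, and celastrol replicate 4 was the highest of the 23 arrays. The means were 7.84 ± 0.655 with celastrol and 6.48 ± 0.0182 with vehicle (SD, n = 4 each). The difference was 1.36 ± 0.226 (SE) on the log2 scale, a 2.56-fold higher level. Of all genes, 6.44% lay higher on every celastrol array than on any vehicle array at 1 day. Without celastrol replicate 4 the difference was 1.04.

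The vehicle group at 1 day held the lowest Lcn2 values of the series, and they were close together. Lcn2 was in the lowest of 3 equal classes of genes by level, and whether these values lay near the lower limit of measurement was not tested. The Lcn2 mean of vehicle mice at 1 day was 0.79 below that of vehicle mice at 6 h and 0.62 below that of vehicle mice at 4 days. All 4 of these 1-day values were below every other array. Among all genes, 3.61% were lower on every vehicle array at 1 day than on any at 6 h, and 13.2% were higher on every vehicle array at 4 days than on any at 1 day. Likewise 14.9% were higher on every celastrol array at 6 h than on any vehicle array at 1 day. Against all 12 vehicle arrays in place of the 4 at 1 day, the celastrol difference at 1 day was 0.89. Within celastrol mice the Lcn2 level was 0.86 higher at 1 day than at 6 h, and 0.36 lower at 4 days than at 1 day. Without celastrol replicate 4 at 1 day, these became 0.54 and -0.05.

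**Figure D1:**
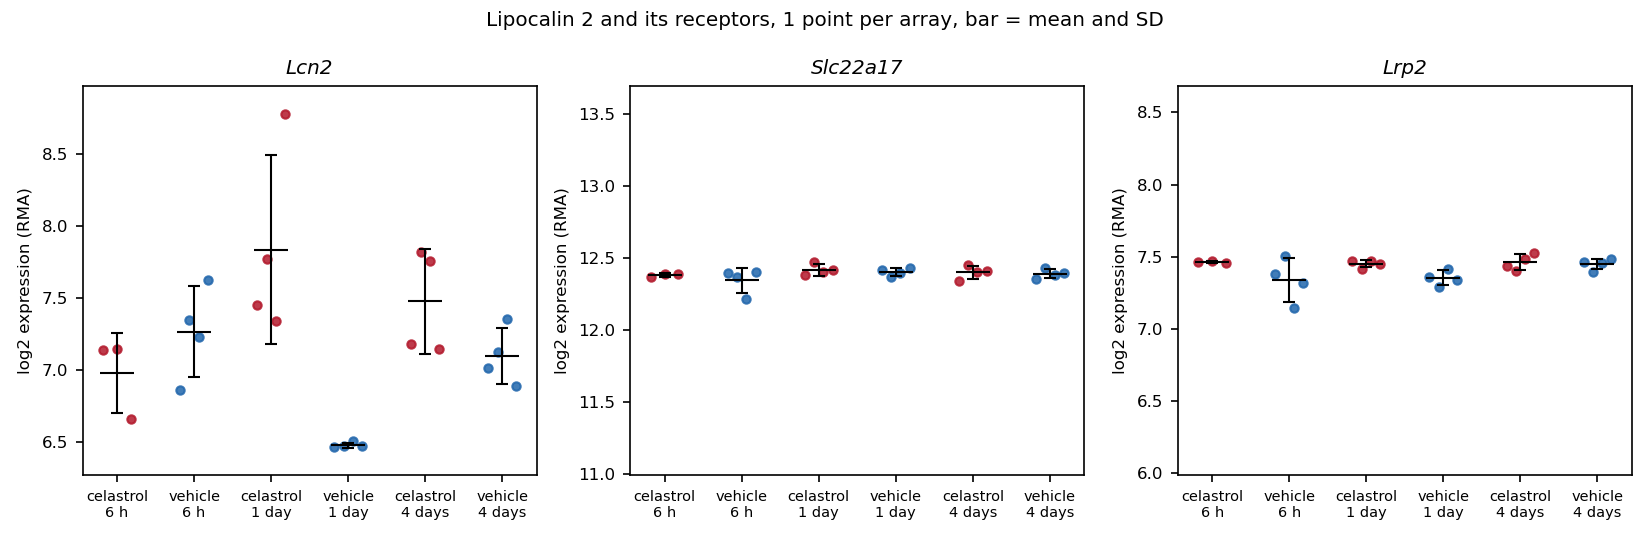
Log2 expression of Lcn2, Slc22a17 and Lrp2 on each of the 23 arrays, by treatment and time; points are arrays and bars are group means with SD, and the 3 vertical axes span the same number of log2 units. The 4 Lcn2 values of celastrol at 1 day lie between 7.34 and 8.78 and those of vehicle at 1 day between 6.46 and 6.50, while both receptors vary little.

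At 6 h the Lcn2 values were 7.14, 7.14 and 6.66 with celastrol, against 6.86, 7.35, 7.23 and 7.62 with vehicle. The ranges overlapped, and 1 of 3 celastrol arrays lay below all vehicle arrays. The difference of -0.29 ± 0.244 (SE; 95% interval -0.79 to 0.22) did not pass (limma, adjusted p = 0.58). In that comparison limma called 0 of 18702 genes (0%) after adjustment, and 2763 genes (14.8%) had an unadjusted p under 0.05. Without the 3 vehicle arrays rich in pituitary markers, the Lcn2 difference at 6 h was -0.07, and without vehicle replicate 3 at 6 h it was -0.30.

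At 4 days Lcn2 stood at 7.18, 7.82, 7.76 and 7.15 with celastrol, against 7.01, 7.12, 7.35 and 6.89 with vehicle. Celastrol replicates 2 and 3 lay above all vehicle arrays and the other two lay within their range. The difference was 0.38 ± 0.226 (SE; 95% interval -0.09 to 0.85), which did not pass (limma, adjusted p = 0.767). Of all genes 0 (0%) were called at 4 days by limma, with 1364 (7.29%) at an unadjusted p under 0.05. The Lcn2 difference at 4 days was 0.39 without the vehicle array rich in pituitary markers.

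Between 4 days and 6 h, the pair of times that leaves the 1-day arrays aside, Lcn2 passed no test. Among celastrol mice the level was 0.50 ± 0.244 (SE) higher at 4 days than at 6 h (limma, adjusted p = 0.358), a comparison in which 0.0749% of genes were called. Among vehicle mice it was -0.17 ± 0.226 (SE) at 4 days relative to 6 h (limma, adjusted p = 0.667), with 3.91% of genes called. That value was 0.04 without the 3 vehicle arrays rich in pituitary markers. The celastrol difference at 4 days minus that at 6 h was 0.67 ± 0.333 (SE; limma, adjusted p = 0.349), with 0.016% of genes called.

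Lcn2 varied more between arrays of a group than almost any other gene. Its within-group SD was 0.364, larger than that of 99.818% of genes, where the median gene had 0.0942. Its range over the 23 arrays was 2.32 log2 units, wider than that of 99.93% of genes. The order of its group means ran vehicle 1 day, celastrol 6 h, vehicle 4 days, vehicle 6 h, celastrol 4 days, celastrol 1 day, and only the first 2 neighbours in that order had ranges that did not overlap.

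**Figure D2:**
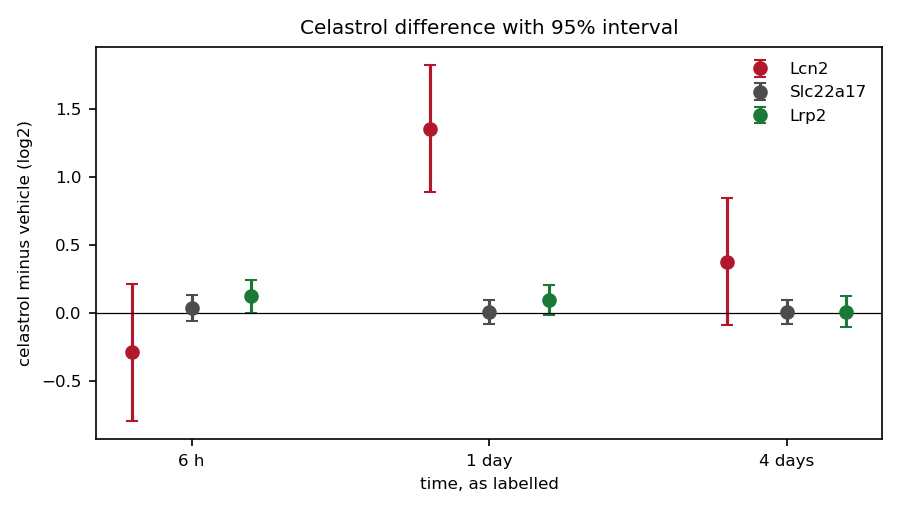
Celastrol minus vehicle differences on the log2 scale for the 3 genes at 6 h, 1 day and 4 days, with 95% intervals from the limma fit. The Lcn2 interval at 1 day (0.89 to 1.83) belongs to the difference for which the gene was picked and carries no test; the receptor differences lie between 0.01 and 0.13.

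The transcripts whose pattern over the 23 arrays was most like that of Lcn2 were Lrg1, Ch25h, Scgb3a1, Icam2 and Camk1g, ranked by Pearson's r over the log2 values. These correlations describe arrays that share the treatment groups, so they include the 1-day difference and are given with no p. Lrg1, which encodes an acute-phase glycoprotein, had an r of 0.86 with Lcn2 (rho 0.75). Over deviations from the group means, which leave out the differences between groups, its r was 0.70. Ch25h, cholesterol 25-hydroxylase, had 0.75 over values and 0.63 over deviations. Scgb3a1, which encodes a secretoglobin made by epithelia, had 0.74 over values and 0.55 over deviations. The endothelial and leukocyte adhesion molecule gene Icam2 had 0.74 over values, as did Camk1g, a calcium/calmodulin-dependent kinase gene. Over deviations these 2 had 0.66 and 0.40. With the 1-day arrays left aside, r over the values was lower for all 5 genes, between 0.54 (Camk1g) and 0.61 (Scgb3a1), with 0.59 for Lrg1. Without the array that stood apart, 3 of these 5 genes were again among the nearest 5. For these genes r was not computed without celastrol replicate 4 at 1 day, the array with the highest Lcn2 value (8.78, where its group mean was 7.84).

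For each of these 5 genes the 4 celastrol arrays at 1 day exceeded the 4 vehicle arrays, which follows in part from how they were picked. Their celastrol differences at 6 h, 1 day and 4 days were 0.02, 0.63 and 0.08 for Lrg1. For Ch25h they were -0.28, 0.79 and 0.18, and for Scgb3a1 -0.01, 1.04 and 0.28. For Icam2 they were 0.11, 0.20 and 0.15, and for Camk1g -0.07, 0.22 and 0.09. The celastrol array at 1 day with the highest Lcn2 value, replicate 4, was also the highest of all arrays for Lrg1 (7.77) and Ch25h (7.88), while Scgb3a1 was highest on replicate 2 (9.33).

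**Figure D3:**
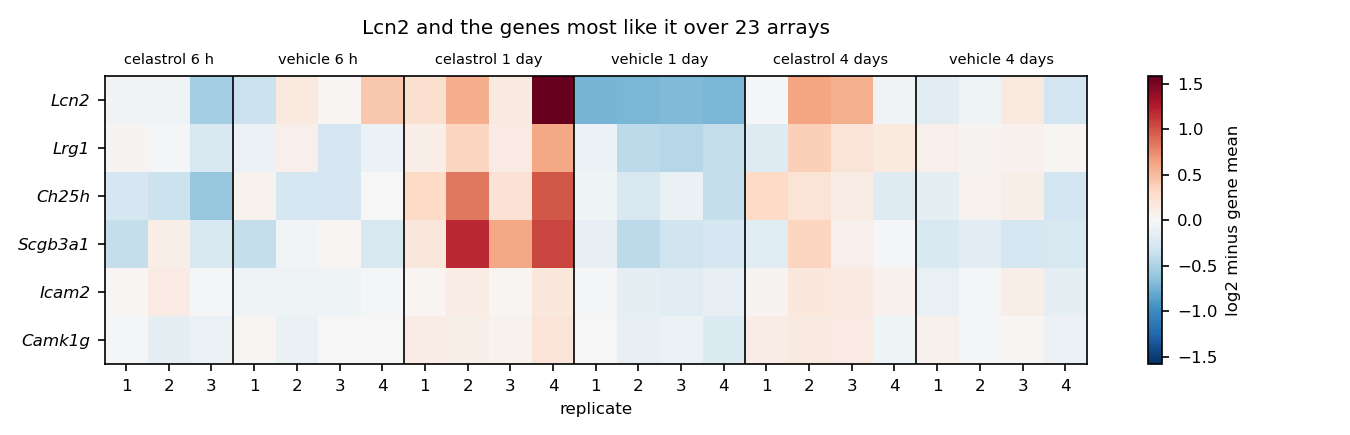
Log2 expression minus each gene's mean over 23 arrays, for Lcn2 and the 5 genes most like it (rows), by array (columns, grouped by treatment and time, celastrol left of vehicle); red is above and blue below the gene's mean. For Lcn2, celastrol replicate 4 at 1 day has the highest value (8.78) and the 4 vehicle columns at 1 day have the lowest (6.46 to 6.50).

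The promoters of Lcn2 and of the 3 genes most like it are shown because these transcripts were high on the same arrays. The sequences are those of RefSeq on GRCm38.p6, each from 250 bases before to 50 bases after the gene's start, 5′ to 3′ on the gene's strand. They lie at chr2:32387690-32387989 (minus strand) for Lcn2, chr17:56121897-56122196 (minus) for Lrg1, chr19:34475099-34475398 (minus) for Ch25h and chr11:49663345-49663644 (plus) for Scgb3a1. A window was found for 7 of the 8 genes looked up. Capitals mark matches, on either strand, to 3 motif patterns: an NF-kB type (GGG and CC with any 5 bases between them), a C/EBP type TTNNGNAA and a STAT type TTCNNNGAA.
Lcn2: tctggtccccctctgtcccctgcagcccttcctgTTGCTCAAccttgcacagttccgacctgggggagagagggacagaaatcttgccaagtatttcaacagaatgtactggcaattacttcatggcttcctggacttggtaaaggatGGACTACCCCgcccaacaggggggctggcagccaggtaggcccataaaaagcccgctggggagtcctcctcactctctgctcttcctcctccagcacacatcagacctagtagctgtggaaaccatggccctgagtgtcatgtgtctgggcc
Lrg1: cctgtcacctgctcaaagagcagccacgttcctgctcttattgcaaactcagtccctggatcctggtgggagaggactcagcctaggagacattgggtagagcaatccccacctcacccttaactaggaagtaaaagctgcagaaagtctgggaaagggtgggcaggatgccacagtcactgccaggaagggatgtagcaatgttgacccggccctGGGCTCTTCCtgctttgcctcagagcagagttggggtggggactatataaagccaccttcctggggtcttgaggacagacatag
Ch25h: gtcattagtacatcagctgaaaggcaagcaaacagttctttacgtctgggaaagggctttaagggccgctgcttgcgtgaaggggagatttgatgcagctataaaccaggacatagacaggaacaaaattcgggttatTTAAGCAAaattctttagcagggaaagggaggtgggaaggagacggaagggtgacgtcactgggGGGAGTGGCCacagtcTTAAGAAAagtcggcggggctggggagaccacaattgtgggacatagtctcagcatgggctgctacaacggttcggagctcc
Scgb3a1: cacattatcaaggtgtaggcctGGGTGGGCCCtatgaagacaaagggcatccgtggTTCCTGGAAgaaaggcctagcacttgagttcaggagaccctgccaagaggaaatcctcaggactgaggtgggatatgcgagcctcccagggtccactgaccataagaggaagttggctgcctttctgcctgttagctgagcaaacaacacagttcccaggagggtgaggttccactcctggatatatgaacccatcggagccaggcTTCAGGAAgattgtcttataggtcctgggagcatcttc

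Among all 32851 promoter windows of this length, 50.8% hold the NF-kB type pattern, 40.7% the C/EBP type and 8.3% the STAT type, so that a match to either of the first 2 is common. Positions are those of the leftmost base of a match, with the first transcribed base as 1 and no position 0. The Lcn2 window held 1 NF-kB type match, GGACTACCCC at -102, and 1 C/EBP type match, TTGCTCAA at -216. The Lrg1 window held 1 NF-kB type match at -34. The Ch25h window held 1 NF-kB type match at -48 and C/EBP type matches at -112 and -32. The Scgb3a1 window held the only STAT type match of the 4, TTCCTGGAA at -194, with an NF-kB type match at -228 and a C/EBP type match at 13. These are matches of letters and do not show binding.

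Over deviations from group means alone, the gene nearest to Lcn2 was Havcr1, which encodes kidney injury molecule 1, known like lipocalin 2 as a marker of damaged kidney tubule. Its r was 0.79 over the 23 arrays, and 0.58 over the values. Next were F12 (coagulation factor XII), Osgep, Letm2 and Pde6g, with r between 0.70 and 0.73 over deviations. Over the values Letm2 had an r of 0.20 and a rho of -0.07. Within celastrol at 1 day, Havcr1 and each of these genes were highest on replicate 4, the array with the highest Lcn2 value. Their r without that array was not computed. The Havcr1 level was low, at 6.055 on that array beside array medians between 8.57 and 8.64. Havcr1 itself differed between celastrol and vehicle by 0.12, 0.14 and 0.05 at 6 h, 1 day and 4 days. Only 10 of 18701 other genes (0.053%) reached an absolute r of 0.7 with Lcn2 over deviations.

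Slc22a17, the surface receptor gene, was steady in every group. At 6 h its values were 12.37, 12.39 and 12.39 with celastrol, against 12.40, 12.37, 12.21 and 12.40 with vehicle. At 1 day they were 12.38, 12.47, 12.40 and 12.41 with celastrol, against 12.42, 12.37, 12.40 and 12.43 with vehicle. At 4 days they were 12.34, 12.45, 12.40 and 12.41 with celastrol, against 12.36, 12.43, 12.38 and 12.40 with vehicle. The groups overlapped at each time, and the 1 low value was that of vehicle replicate 3 at 6 h, the array that stood apart.

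The Slc22a17 celastrol differences were 0.04 ± 0.0459 (SE; 95% interval -0.06 to 0.13) at 6 h, 0.01 ± 0.0425 (-0.08 to 0.10) at 1 day and 0.01 ± 0.0425 (-0.08 to 0.10) at 4 days. None passed (limma, adjusted p = 0.716, 0.930 and 0.988). Without vehicle replicate 3 at 6 h the Slc22a17 difference at 6 h was -0.0067. It was 0.08 at 6 h and 0.02 at 4 days without the 3 vehicle arrays rich in pituitary markers. At 1 day limma called 3 genes (0.016%), and 2338 (12.5%) had an unadjusted p under 0.05. The interval at 1 day leaves out a change of the size seen for Lcn2, and differences inside the intervals cannot be told from 0 at this number of arrays. Its within-group SD, 0.0484, was smaller than that of all but 4.053% of genes. None of its contrasts between times passed. In those not yet given, limma called 0 genes (0%; 1999, or 10.7%, at an unadjusted p under 0.05) for vehicle 1 day against 6 h, 0.0321% for celastrol 1 day against 6 h and 0.353% for celastrol 4 days against 1 day. For the change of the celastrol difference it called 0 (0%; 685, or 3.66%, at an unadjusted p under 0.05) for 1 day minus 6 h and 0.0909% for 4 days minus 1 day.

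Lrp2, the megalin gene, differed by 0.13 and 0.10 at the 2 earlier times, and neither difference passed. At 6 h its values were 7.46, 7.47 and 7.46 with celastrol, against 7.38, 7.51, 7.14 and 7.32 with vehicle. The celastrol arrays lay inside the wider vehicle range. The difference was 0.13 ± 0.0585 (SE; 95% interval 0.01 to 0.25), with an unadjusted p of 0.0401 that did not pass adjustment over all genes (limma, adjusted p = 0.318). Without vehicle replicate 3 at 6 h it was 0.06, and without the 3 vehicle arrays rich in pituitary markers it was 0.20 (limma, adjusted p = 0.0749). After a further quantile normalisation it was 0.05.

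At 1 day the Lrp2 values were 7.47, 7.42, 7.47 and 7.45 with celastrol, against 7.36, 7.29, 7.42 and 7.34 with vehicle. All 4 celastrol arrays were above all 4 vehicle arrays, by the narrow margin of 7.417 over 7.416, beside 6.44% of all genes. The difference of 0.10 ± 0.0542 (SE; 95% interval -0.01 to 0.21) did not pass (limma, adjusted p = 0.471), and it was 0.02 after a further quantile normalisation. At 4 days the values were 7.43, 7.40, 7.49 and 7.52 with celastrol, against 7.46, 7.40, 7.45 and 7.48 with vehicle. These overlapped, with a difference of 0.01 ± 0.0542 (SE; 95% interval -0.10 to 0.13; limma, adjusted p = 0.986), and of -0.0046 without the 3 vehicle arrays rich in pituitary markers.

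With time, the Lrp2 level of vehicle mice was 0.11 ± 0.0542 (SE) higher at 4 days than at 6 h (limma, adjusted p = 0.210) and 0.10 ± 0.0542 (SE) higher at 4 days than at 1 day (limma, adjusted p = 0.247), where 11.8% of genes were called. Neither passed. Without the 3 vehicle arrays rich in pituitary markers, the contrast of 4 days with 6 h was 0.21 and passed (limma, adjusted p = 0.0418). Vehicle replicate 2 at 6 h, among the arrays left out, held the highest Lrp2 value of its group. That fit kept only replicates 1 (7.38) and 3 (7.14) of vehicle at 6 h, and replicate 3 is the array that stood apart. In the same fit the contrast of 4 days with 1 day was 0.11 (limma, adjusted p = 0.168). Without vehicle replicate 3 at 6 h, the contrast of 4 days with 6 h was 0.05. Among celastrol mice the Lrp2 means of the 3 times lay between 7.45 and 7.46. The celastrol difference at 4 days minus that at 6 h was -0.11 ± 0.0798 (SE; limma, adjusted p = 0.508), and 0.0033 after a further quantile normalisation.

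The receptors were compared with each other and with marker genes of cell types through deviations from group means. RNA came from whole tissue, in which fewer cells of a type and less RNA per cell cannot be told apart. Over the 23 arrays Slc22a17 and Lrp2 had an r of 0.42 and a rho of 0.03 (permutation test within groups, p = 0.413 and 0.923; adjusted p = 0.735 and 0.987 over 33 relations). Without the 2 arrays farthest from the median the r was -0.16, and without vehicle replicate 3 at 6 h it was -0.31, so the positive value rests on that array. Lcn2 had an r of 0.16 with Slc22a17 and of -0.11 with Lrp2 (permutation test, adjusted p = 0.735 for each).

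None of the 33 relations passed the adjustment. The strongest was that of Slc22a17 with the mean of 12 astrocyte markers, with an r of 0.70 and a rho of 0.63 (permutation test, p = 0.00315 and 0.00415; adjusted p = 0.104 and 0.137), and an r of 0.57 without the 2 farthest arrays. Lrp2 had an r of -0.16 with 15 choroid plexus markers and of -0.57 with 12 ependymal markers (permutation test, adjusted p = 0.735 and 0.404). Without the 2 farthest arrays these were -0.11 and -0.32, so that much of the ependymal value rests on 2 arrays. Likeness to single genes also turned on the array that stood apart. With Slc22a17, 548 genes (2.93%) had an absolute r of at least 0.7 over deviations, and 30 (0.16%) without that array; with Lrp2 the numbers were 383 (2.048%) and 33 (0.176%). The 5 genes nearest to Slc22a17 over the values were Ahdc1, Cbarp, Cdk5r2, Celf4 and Prrc2b (r 0.84 to 0.87), and the 5 nearest to Lrp2 were Dnah1, Tub, Astn1, Dlk1 and Ptprn (r 0.82 to 0.87). Without that array 0 of 5 stayed among the nearest 5 for either receptor.

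**Figure D4:**
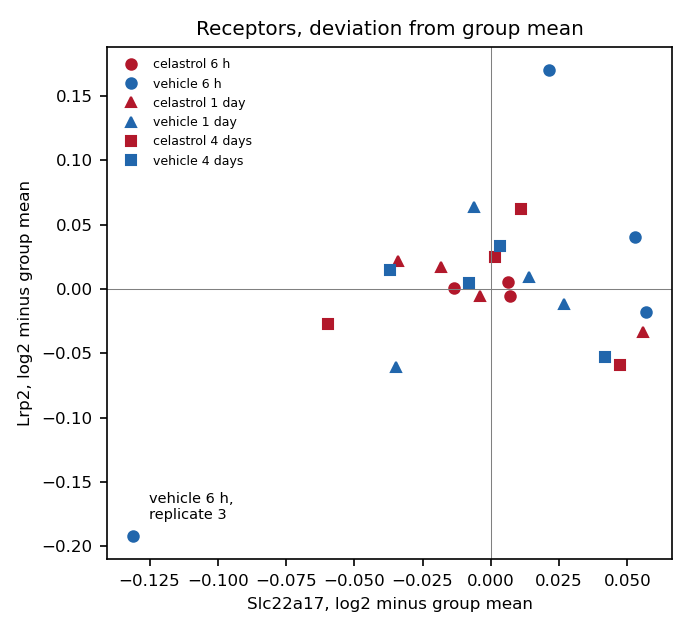
Deviation of each array from its group mean for Slc22a17 (horizontal) and Lrp2 (vertical), in log2 units; celastrol arrays are red, vehicle arrays blue, and marker shapes give the time. Vehicle replicate 3 at 6 h lies alone at the lower left, and r is 0.42 with it and -0.31 without it.

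Markers of neutrophils, the classic source of lipocalin 2, were higher with celastrol at 1 day as a group of small differences. All 12 measured markers (Lcn2 left out) were higher, with a median difference of 0.13, while the median of all genes was 0.0086 and 54.1% of all genes were higher. The mean of the 12 lay between 6.535 and 6.661 on the celastrol arrays and between 6.456 and 6.515 on the vehicle arrays, with no overlap. These are low levels beside array medians between 8.57 and 8.64. The median difference of this list was not recomputed without genes of low level or after further quantile normalisation, as was done for the pathway lists below. By limma 0 passed over all genes and 4 had an unadjusted p under 0.05. Among these markers S100a8 and S100a9 differed by 0.27 ± 0.0749 and 0.19 ± 0.0768 (SE; limma, adjusted p = 0.191 and 0.332), and the granule gene Ngp by 0.13. Within groups Lcn2 had an r of 0.21 and a rho of 0.06 with the neutrophil mean (permutation test, adjusted p = 0.735 and 0.987). The part of neutrophils in the Lcn2 difference was not tested. At 6 h 11 of the 12 markers were also higher, beside 52.8% of all genes, with a median of 0.06, while Lcn2 differed by -0.29. Without the 3 vehicle arrays rich in pituitary markers 8 were higher at 6 h. S100a8, S100a9 and Ngp differed by -0.01, 0.16 and 0.18 at 6 h with all arrays. At 4 days Ngp differed by 0.50 ± 0.0879 (SE; limma, adjusted p = 0.087), with 9 of 12 markers higher.

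Of the genes known to induce lipocalin 2, 21 of the 24 listed were measured, and none passed at any time. Over all genes, 52.8% were higher at 6 h, 54.1% at 1 day and 49.7% at 4 days, and the shares at an unadjusted p under 0.05 were 14.8%, 12.5% and 7.29%. The list counts here and below stand beside these shares. At 1 day 18 inducers were higher and 3 lower, with a median of 0.10, and 6 had an unadjusted p under 0.05 (limma). At 6 h 13 were higher (median 0.03, 5 at an unadjusted p under 0.05), and at 4 days 12 were higher (median 0.0043, 2 at an unadjusted p under 0.05). Osmr, the oncostatin M receptor that signals through STAT3, stood at 8.60 ± 0.24 with celastrol and 8.09 ± 0.115 with vehicle at 1 day (SD, n = 4 each). That difference was 0.51 ± 0.158 (SE; limma, adjusted p = 0.202). It was -0.33 at 6 h and 0.20 at 4 days. The median of the inducers at 6 h was 0.06, with 15 higher, without the 3 vehicle arrays rich in pituitary markers, and without vehicle replicate 3 at 6 h it was 0.0080, with 11 higher.

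Among the other inducers at 1 day, Il1b, the gene of interleukin-1 beta, differed by 0.32 ± 0.0997 (SE; limma, adjusted p = 0.214), and by 0.33 already at 6 h (limma, adjusted p = 0.201). The transcription factor gene Cebpd differed by 0.22 and Nfkbiz, the NF-kB cofactor gene, by 0.18 (limma, adjusted p = 0.241 and 0.254). The interleukin-6 receptor gene Il6ra differed by 0.20, while its signalling partner Il6st and the transcription factor Stat3 differed by -0.09 and 0.02. Without the lowest of 3 equal classes of genes by level, the median of the list at 1 day was 0.03, and with further quantile normalisation it was 0.06.

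Genes of reactive astrocytes and of the acute phase, 18 of 19 measured, gave 15 higher and 3 lower at 1 day with a median of 0.09, and 0 passed (limma; 6 at an unadjusted p under 0.05). Besides Lrg1 (limma, adjusted p = 0.0595), Timp1, a metalloproteinase inhibitor, differed by 0.22, Serpina3n, an acute-phase protease inhibitor, by 0.10, and the astrocyte filament gene Gfap by -0.08. At 6 h the list had 12 higher (median 0.02) and at 4 days 11 higher (median 0.04). Without the 3 vehicle arrays rich in pituitary markers these medians were 0.08 and 0.0035, and without vehicle replicate 3 at 6 h the 6 h median was -0.01. Serpina3n was -0.22 ± 0.0589 (SE) at 6 h (limma, adjusted p = 0.173).

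The 4 partners of lipocalin 2 were all measured and 0 passed at any time (limma; 0, 0 and 1 at an unadjusted p under 0.05). Mc4r, its reported hypothalamic receptor, differed by -0.03 at 6 h, 0.08 at 1 day and 0.18 ± 0.0782 (SE) at 4 days (limma, adjusted p = 0.63). Mmp9, the metalloproteinase that lipocalin 2 binds and that is also a neutrophil marker here, differed by 0.04, 0.20 and 0.10. Bdh2, which was reported to make a mammalian siderophore, differed by 0.05, -0.01 and 0.0033.

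Iron handling genes, the pathway that lipocalin 2 serves, were spread around 0. All 30 were measured, with 16 higher and 14 lower at 1 day and a median of 0.0032. By limma 0 passed at any time, and 1, 4 and 4 had an unadjusted p under 0.05 at 6 h, 1 day and 4 days. The lowest at 1 day among the named genes were Slc40a1, the iron exporter ferroportin, at -0.31 ± 0.0884 (SE; limma, adjusted p = 0.191) and Tfrc, the transferrin receptor, at -0.26 ± 0.0674 (SE; limma, adjusted p = 0.17). Transferrin (Trf) was at -0.13. The ferritin genes Fth1 and Ftl1 were at -0.03 and -0.04, and the haem oxygenase gene Hmox1 at 0.08. Tfrc averaged 9.905 ± 0.0126 with celastrol and 10.16 ± 0.134 with vehicle at 1 day (SD, n = 4 each).

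The endocytic machinery around megalin had 9 of 12 genes measured and gave no call (limma; 1, 4 and 0 at an unadjusted p under 0.05 at 6 h, 1 day and 4 days). At 1 day 3 were higher and 6 lower, with a median of -0.04. Cubn, the co-receptor cubilin, differed by -0.02, the adaptor gene Dab2 by -0.08 and the chaperone gene Lrpap1 by 0.08. The other LDL receptor family genes, 12 of 13 measured, gave no call either (limma; 0 at an unadjusted p under 0.05 at each time), with 6 higher and 6 lower at 1 day. Lrp1 and Lrp8 differed by 0.0036 and -0.04. At 6 h the median of this family was 0.02. It was 0.09 without the 3 vehicle arrays rich in pituitary markers and -0.03 without vehicle replicate 3 at 6 h.

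The families of the ligand and of the surface receptor had 0 calls as well. Of 20 other lipocalin genes 18 were measured, with 14 higher at 6 h, 14 higher at 1 day and 2 higher at 4 days (medians 0.10, 0.07 and -0.07). By limma 3, 4 and 3 had an unadjusted p under 0.05. At 4 days Ptgds, the lipocalin-type prostaglandin D synthase, differed by -0.33 and Rbp4, the retinol carrier, by -0.25 (limma, adjusted p = 0.563 and 0.637). Further quantile normalisation gave medians of 0.0080 at 6 h and 0.02 at 1 day. Without the lowest of 3 equal classes of genes by level the medians were -0.08 at 6 h, 0.0097 at 1 day and -0.16 at 4 days, so the sign at 6 h turned. They were 0.08 at 6 h and -0.11 at 4 days, with 4 higher at 4 days, without the 3 vehicle arrays rich in pituitary markers.

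Of 22 other SLC22 transporter genes 19 were measured, with 11 higher at 6 h, 13 higher at 1 day and 3 higher at 4 days (medians 0.03, 0.10 and -0.11). By limma 3, 6 and 5 had an unadjusted p under 0.05. Without the lowest of 3 equal classes of genes by level the median at 1 day was 0.0062, and with further quantile normalisation it was 0.05. The medians were 0.07 at 6 h and -0.08 at 4 days without the 3 vehicle arrays rich in pituitary markers. Slc22a8, an organic anion transporter of the brain's barriers, differed by -0.50 ± 0.145 (SE) at 4 days (limma, adjusted p = 0.344). At that time all 12 meningeal fibroblast markers were lower with celastrol, with a median of -0.36 (-0.29 without the vehicle array rich in pituitary markers) and array means of 8.525 to 8.719 with celastrol and 8.515 to 9.224 with vehicle. The SLC22 and meningeal lists share Slc22a6, and the part of meninges in the values of Slc22a8, Ptgds and Rbp4 was not tested. Slc22a23, another member of the family, differed by 0.03, -0.04 and 0.05 at the 3 times.

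**Figure D5:**
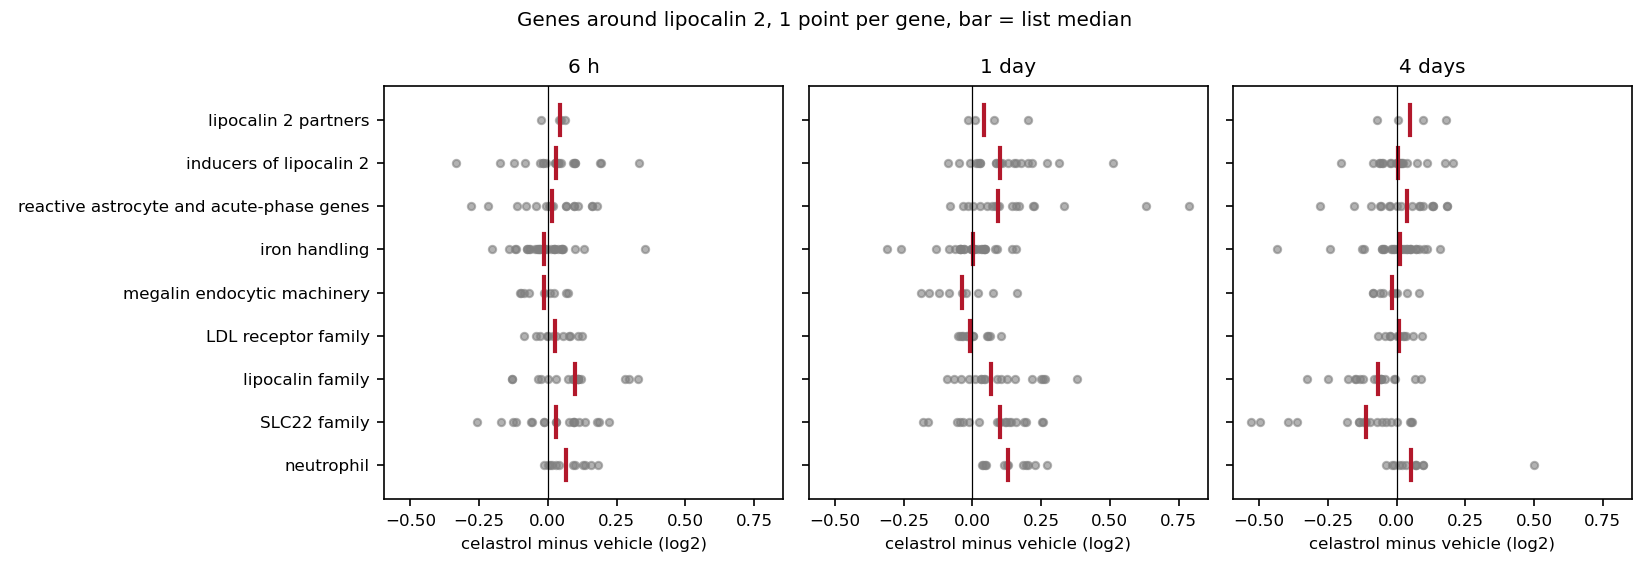
Celastrol minus vehicle difference (log2) of each measured gene of 9 lists at 6 h, 1 day and 4 days; points are genes and red bars are list medians. At 1 day the medians of inducers (0.10), reactive astrocyte and acute-phase genes (0.09), SLC22 genes (0.10) and neutrophil markers (0.13) lie right of 0. Without the lowest of 3 equal classes of genes by level they were 0.03 for inducers and 0.0062 for SLC22 genes. For neutrophil markers that value was not computed. No gene drawn passed adjustment over all genes.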

How the data were processed

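Each deposited log2 value summarises 1 probe set, and the submitters' processing notes name RMA as the authors' method; it corrects background, normalises by quantiles and summarises probes, which compresses small signals. Which software ran it, and on which arrays together, the sources used here do not say. No further normalisation was applied.

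Of 23492 probe sets, 20228 named 1 gene by the platform's annotation with symbols updated through RefSeq (44 kept an older symbol), 1399 named several and 1865 none. For the 811 genes with more than 1 probe set, that with the highest mean was taken. Means of 6 groups were modelled over 23 arrays and 18702 genes with limma 3.58.1 in R 4.3.3 (17 residual and 5.424 prior degrees of freedom, eBayes without trend), with Benjamini-Hochberg adjustment over all genes at 0.05. Every adjusted p of a gene comes from this fit. The script was tested on simulated data.

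Relations over arrays used deviations from group means and 100000 two-sided permutations within groups, adjusted over 33 relations; the pituitary list was left out because 3 vehicle arrays stood apart in it. Precision is limited by how many arrays there were: the 95% interval of a difference reached, for the median gene, 0.146 to either side at 6 h and 0.136 later.

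The members and all gene lists were chosen with earlier results of these data known. Genes named are the members, a set of pathway genes chosen for role, and the 5 genes most like each member over values and over deviations. Alternatives were further normalisation, array weights, other gene filters and fits, and leaving out each array; setting celastrol at 1 day against all vehicle arrays, and leaving out 3 vehicle arrays, were added after the data were examined. Promoters were read from RefSeq windows; protein sequences were not used here.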

Additional observations from a re-analysis of the deposited data

How the results depend on the processing

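Of 339 recomputed differences of the 3 genes with settings other than leaving out 1 array, 320 were counted as unchanged, and of 828 with 1 array left out, 807 were. A tested difference counted as unchanged if it kept its direction and side of the threshold. None had passed in the main fit, so keeping its side meant not passing. The Lcn2 differences that use the 1-day arrays have no test, and counted as unchanged if they moved by less than the within-group SD. The lowest of 3 equal classes of genes by level includes Lcn2 and Lrp2, so the filter that removes it gave no value for them.

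Genes called at 1 day numbered 3, against 1 with further quantile normalisation, 0 with a robust variance trend, 406 with array weights, 1 with every probe set, 0 without the 3 vehicle arrays rich in pituitary markers, and 0 to 7 leaving out 1 array (7 without celastrol replicate 3 at 1 day). At 6 h they numbered 20 without those 3 arrays, a setting that kept only vehicle replicates 1 and 3 at 6 h. They numbered 0 to 2 there leaving out 1 array (2 without vehicle replicate 4 at 6 h). At 4 days they numbered 0 to 39 leaving out 1 array, with 39 without vehicle replicate 4 at 4 days. The causes were not tested.

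For arrays of different groups with the same replicate number, deviations had a median r of -0.0074 over 55 pairs (-0.22 to 0.26). It was 0.0019 over 165 pairs with different numbers. These pairs pool all times, and a pairing of celastrol with vehicle arrays of the same time was not tested separately. With the replicate number as a block, 1 gene was called at 1 day and 1 at 4 days, and the Lcn2 difference at 6 h was -0.24.

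The Lcn2 difference at 1 day lay between 1.04 and 1.52 leaving out 1 array and was 0.89 against all 12 vehicle arrays. Leaving out 1 array, Lcn2 lay between -0.42 and -0.13 at 6 h and between 0.27 and 0.49 at 4 days. Slc22a17 lay between -0.0067 and 0.056 at 6 h (negative without vehicle replicate 3), between -0.0057 and 0.024 at 1 day and between -0.0064 and 0.029 at 4 days. Lrp2 lay between 0.064 and 0.18, between 0.078 and 0.12, and between -0.0076 and 0.033 at these times.

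Signs turned for a number of receptor values, not only for those near 0. In the main fit Lrp2 was at 0.096 for vehicle 4 days against 1 day. Its celastrol effect was at -0.11 for 4 days minus 6 h and at -0.085 for 4 days minus 1 day. All of these turned with further quantile normalisation. With further quantile normalisation Slc22a17 was at -0.00053 for celastrol at 4 days and at 0.015 for vehicle 4 days against 1 day, and Lrp2 at -0.043 for that vehicle contrast. Lrp2 was then at 0.051, -0.011 and 0.040 for celastrol 1 day against 6 h, 4 days against 1 day and 4 days against 6 h, and its celastrol effect at 0.0033 for 4 days minus 6 h and 0.032 for 4 days minus 1 day. With arrays centred on their medians, Lrp2 was at -0.011 for celastrol 4 days against 1 day and Slc22a17 at -0.0093 for celastrol 4 days against 6 h. With array weights, Lrp2 was at -0.039 for vehicle 1 day against 6 h, the celastrol effect at 1 day minus 6 h was 0.010 for Slc22a17 and 0.026 for Lrp2, and that at 4 days minus 6 h was 0.0073 for Slc22a17. Without the 3 vehicle arrays rich in pituitary markers, Lrp2 was at -0.0046 for celastrol at 4 days, the Slc22a17 effect at 4 days minus 1 day was 0.010, and for vehicle 4 days against 6 h Lcn2 was at 0.040 and Lrp2 at 0.21. Leaving out 1 array, receptor contrasts that turned lay between the following values. For Lrp2 they were -0.010 to 0.030 (celastrol 4 days against 1 day), -0.024 to 0.017 (celastrol 4 days against 6 h), -0.048 to 0.072 (vehicle 1 day against 6 h) and -0.086 to 0.035 (effect 1 day minus 6 h). For Slc22a17 they were -0.032 to 0.0036 (celastrol 4 days against 1 day) and, for the effects, -0.043 to 0.020 (1 day minus 6 h), -0.019 to 0.016 (4 days minus 1 day) and -0.047 to 0.016 (4 days minus 6 h).

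List medians moved with further quantile normalisation to -0.022 for partners at 6 h, 0.057 for inducers at 1 day, 0.0080 and 0.022 for lipocalin genes at 6 h and 1 day, and 0.054 for SLC22 genes at 1 day. Without the lowest class of genes they were 0.027 for inducers and 0.0062 for SLC22 genes at 1 day, and -0.077, 0.0097 and -0.16 for lipocalin genes at 6 h, 1 day and 4 days. Without the 3 vehicle arrays rich in pituitary markers the median was 0.077 for reactive astrocyte and acute-phase genes at 6 h. Over log2 values with group means kept, r was 0.18 for Lrp2 with choroid plexus markers and 0.20 for Lcn2 with Lrp2; without the 2 farthest arrays it was -0.16 for Slc22a17 with Lrp2. Leaving out 1 array, r lay between -0.31 and 0.52 for Slc22a17 with Lrp2.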

Other observations

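Markers of other cell types were measured beside the 3 genes, and 0 of them passed over all genes at any time (limma). At 1 day 9 of 13 brain endothelial markers were lower with celastrol, with a median of -0.08, and at an unadjusted p under 0.05 there were 5 lower and 2 higher. Of all genes 54.1% were higher at 1 day, with a median of 0.0086, and 12.5% had an unadjusted p under 0.05. Of 9 tanycyte markers 7 were higher at 1 day, with a median of 0.12 and 3 at an unadjusted p under 0.05. Of 14 neuronal markers 11 were lower at 1 day, with a median of -0.02. Choroid plexus markers were 9 of 15 higher at 1 day and 7 of 15 higher at 4 days. Their single differences at 4 days ran between -1.02 for Kcnj13, a potassium channel gene, and 0.46 for Ttr, the transthyretin gene (limma, adjusted p = 0.326 and 0.671). Slc13a4, a sulfate transporter gene, was at -0.87 (limma, adjusted p = 0.311). Kcnj13 and Slc13a4 were named after their values were seen.

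Microglial markers, 11 measured, were split 6 higher and 5 lower at 1 day. Their mean had an r of -0.56 and a rho of -0.52 with Lrp2 over deviations from group means (permutation test, adjusted p = 0.396 and 0.313), and an r of -0.51 without the 2 farthest arrays.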
